A study of Homo sapiens with 9 samples.

Results

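The regions described here come from RPMI-8402, an established line grown from a T-cell acute lymphoblastic leukaemia (T-ALL) of human origin. NKX2-1 is a homeodomain transcription factor that specifies lung, thyroid and parts of the forebrain; T-ALL cells can express it ectopically after chromosomal rearrangement, and the series title names it beside RUNX1, a core regulator of blood development. ChIP-seq recovers crosslinked, sheared chromatin with an antibody, and a peak caller then marks stretches where the sequenced fragments exceed the background. The regions were chosen by peak calls: the authors list them as WT only, their combined NKX2-1 peak list does not contain them, and they lie over 10 kb from every peak called in a knockout clone. They numbered 210 of the 561 regions in the deposited WT-only list, or 210 of the 496 regions on chromosomes 1 to 22, X and Y. They are called off-list far regions below.

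NKX2-1 antibody ab76013 was used on 4 clones that the series design calls knockout (C12, C15, S04 and S36, genotype field NKX2-1) and on 4 clones of genotype WT (WT10, WT13, WT28 and WT30), with 1 library per clone. A further library was made with an antibody against H3K27ac, an acetylation of histone H3 found at active enhancers and promoters. That library has no replicate, no named clone, and NKX2-1 in its genotype field. All cells were RPMI-8402, and no treatment is given. Each knockout or WT library stands for 1 clone, so the p-values below measure the spread between clones, which cannot be told apart from technical spread between libraries. A region called in several libraries enters the value of each of them, so the library values are not fully independent.

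Knockout libraries held 810 to 934 peaks and WT libraries 742 to 1144 peaks on chromosomes 1 to 22, X and Y, and the H3K27ac library held 9857. Read depth is unknown, because the deposited lists hold no read numbers; a region without a peak is one that was not called at that library's depth. The intervals given below cover counting error only. As a check of the cell label, H3K27ac peaks lay within 10 kb of 9 of 12 T-cell lineage genes, among them CD3D, CD3E, CD3G, CD5, LCK, TCF7, GATA3 and BCL11B, and were not called at CD2, CD7 or CD1A. They also lay near 6 of 12 genes of other lineages, among them CD79A, CD14, MPO and LYZ. No off-list far region lay within 10 kb of NKX2-1, the targeted gene; peak lists show no deletion, so the genotype of a clone could not be checked.

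The choice of regions used the presence of calls in WT libraries and their absence in knockout libraries, so that contrast is a description and carries no test. The WT-only list itself matched the calls: all 561 of its regions were identical to a merged WT peak that no knockout peak overlapped. Just beyond the 10 kb limit, and so included, lay regions at 11042 bp (52748 bp from CCDC200, called in WT10), 13053 bp (63110 bp from TPTE, called in WT10) and 15385 bp (1779336 bp from LOC124903767, called in WT28) from a knockout peak. Just short of it, and so left out, lay off-list WT-only regions at 9363 bp (in TTC34, called in WT13), 9287 bp (2767874 bp from KCNJ18, called in WT30) and 7311 bp (1869792 bp from LOC124903767, called in WT30). Over the 210 regions the median distance to a knockout peak was 929500 bp; 21 regions lay within 50 kb of one and 95 over 1 Mb away.

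Of the 210 regions, 14 overlapped a promoter window of the RefSeq table (250 bases before to 50 after an annotated gene start, GRCh38.p14, the assembly that hg38 names). The windows printed here are those whose region either was called in more than 1 WT library or overlapped H3K27ac, plus that of LAT, which was added because the gene is on 1 of the gene lists used below. PSMA6 and LAT have 2 windows each, and the window that shares more bases with the region is shown. Motif letters were searched on both strands: CTCAAG and CAAGTG, which resemble NKX2-1 sites, and TGTGGT and TGCGGT, which resemble RUNX sites. CTCAAG and CAAGTG can overlap each other, but no matches overlapped in the printed windows. Capitals mark a match, and each sequence is given on the strand of its gene.
MIATNB, chr22:26672593-26672892, plus strand, called in WT10 and WT28: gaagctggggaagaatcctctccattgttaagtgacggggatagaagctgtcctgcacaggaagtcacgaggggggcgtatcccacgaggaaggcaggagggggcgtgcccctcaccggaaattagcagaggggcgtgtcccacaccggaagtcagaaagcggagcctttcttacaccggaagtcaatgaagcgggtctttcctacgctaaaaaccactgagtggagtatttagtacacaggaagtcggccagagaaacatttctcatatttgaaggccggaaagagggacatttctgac
LOC124901407, chr6:135323134-135323433, plus strand, called in WT10 and WT28: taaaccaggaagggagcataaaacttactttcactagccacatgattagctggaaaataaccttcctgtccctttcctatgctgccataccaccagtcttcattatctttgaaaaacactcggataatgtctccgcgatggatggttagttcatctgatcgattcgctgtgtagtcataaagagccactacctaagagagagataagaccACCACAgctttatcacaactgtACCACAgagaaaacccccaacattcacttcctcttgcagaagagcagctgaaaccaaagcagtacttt
LST1, chr6:31586449-31586748, plus strand, called in WT10: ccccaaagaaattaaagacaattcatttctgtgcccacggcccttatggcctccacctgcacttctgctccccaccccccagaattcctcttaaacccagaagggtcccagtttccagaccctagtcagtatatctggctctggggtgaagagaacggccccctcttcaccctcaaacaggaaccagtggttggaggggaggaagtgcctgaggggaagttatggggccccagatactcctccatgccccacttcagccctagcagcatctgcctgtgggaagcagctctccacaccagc
LINC01215, chr3:108125571-108125870, plus strand, called in WT10: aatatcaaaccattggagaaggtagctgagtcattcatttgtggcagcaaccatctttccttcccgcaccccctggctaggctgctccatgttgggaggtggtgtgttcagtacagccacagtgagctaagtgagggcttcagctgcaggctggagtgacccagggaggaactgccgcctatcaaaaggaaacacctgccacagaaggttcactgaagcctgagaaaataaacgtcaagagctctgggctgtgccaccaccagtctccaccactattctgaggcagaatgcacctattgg
PSMA6, chr14:35292067-35292366, plus strand, called in WT10: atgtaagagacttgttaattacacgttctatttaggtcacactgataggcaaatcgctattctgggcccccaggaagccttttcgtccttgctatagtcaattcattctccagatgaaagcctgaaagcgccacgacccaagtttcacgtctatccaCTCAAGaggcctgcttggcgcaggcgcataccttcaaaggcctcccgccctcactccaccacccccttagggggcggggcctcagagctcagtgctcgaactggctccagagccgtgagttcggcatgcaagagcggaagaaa
LAT, chr16:28984802-28985101, plus strand, called in WT10: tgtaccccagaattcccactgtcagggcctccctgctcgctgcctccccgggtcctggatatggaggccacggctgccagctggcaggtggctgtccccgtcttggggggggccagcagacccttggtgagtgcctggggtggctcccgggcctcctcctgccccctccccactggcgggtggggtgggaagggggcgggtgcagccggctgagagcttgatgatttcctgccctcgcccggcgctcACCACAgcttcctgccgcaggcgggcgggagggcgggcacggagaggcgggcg

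The PSMA6 window held CTCAAG on the plus strand, the LOC124901407 window held TGTGGT 2 times and the LAT window 1 time, both as the reverse complement ACCACA, and the MIATNB, LST1 and LINC01215 windows held none of the 4 motifs. Over the 17 promoter windows that the 14 regions touched (some genes have 2 starts, and some windows belong to neighbouring genes), 4 held CTCAAG, 1 held CAAGTG, 3 held TGTGGT and 0 held TGCGGT. The 2 PSMA6 windows overlap and hold the same CTCAAG, so that match is counted 2 times among the 4. Among all 35116 windows of the table, 12.4% held CTCAAG, 11.5% CAAGTG, 13.1% TGTGGT and 7.29% TGCGGT. A match is a string of letters and no measured site, and a window without one says only that these letters are not in it.

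Most off-list far regions were called in a single WT clone, and most of those in WT10. WT10 called 158 of the 210 (75.2%, with a 95% Wilson interval of 69.0 to 80.6). WT28 called 63 (30.0%, 24.2 to 36.5), WT30 called 35 (16.7%, 12.2 to 22.3) and WT13 called 17 (8.10%, 5.12 to 12.6). Exactly 1 library called 163 regions (77.6%), of which 115 were in WT10 alone, 29 in WT28 alone, 15 in WT30 alone and 4 in WT13 alone. Calls in 2 or more WT libraries numbered 47 (22.4%), and 20 of the 47 were shared by WT10 and WT28 only. The share was 50.8% for WT-only regions on the combined list and 36.9% for off-list ones within 10 kb of a knockout peak. Knockout regions over 10 kb from every WT peak had 21.6% in 2 or more knockout libraries. Over all 1643 union regions of the 8 libraries, 10.3% had 2 or more WT calls and no knockout call. That base also holds regions with knockout calls, so it is not like for like with the 22.4%. The same rule with WT10 left out kept 95 regions, 17 of them called in 2 or more WT libraries, and with WT28 left out 24 were called in 2 or more. WT10 also had the most peaks of the 8 libraries.

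**Figure D1:**
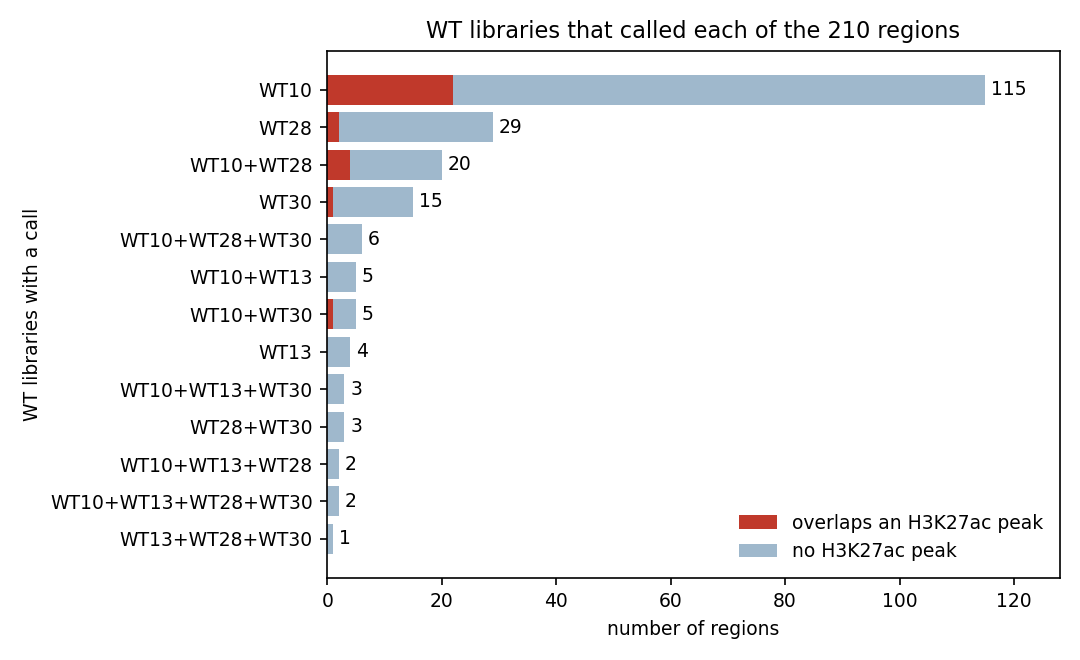
Number of off-list far regions (horizontal axis) for each set of WT libraries with a call (rows), split by overlap with an H3K27ac peak. WT10 alone accounts for 115 of the 210 regions, and the rows of 3 or 4 libraries hold no H3K27ac overlap.

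Across all 1643 union regions of the 8 libraries, 496 (30.2%) had at least 1 WT call and no knockout call, 170 (10.3%) had 2 or more WT calls, 66 (4.02%) had 3 or 4, and 13 (0.791%) had all 4, in each case with no knockout call. The off-list far regions held 47, 14 and 2 of the last 3 counts; since the rule used these calls, the shares describe the choice and nothing more is read from them.

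Called peaks at these regions were narrow and of low significance within their own libraries. The regions were 200 to 545 bp wide, with a median of 245.5 bp. In WT10 the deposited −log10 q at these regions ran from 2.52 to 23.4 with a median of 7.36, against a median of 10.8 and a maximum of 222 over all 1144 peaks of that library. In WT28 it ran from 2.05 to 15.7 with a median of 7.16, against 11.2 over all its peaks, in WT30 from 3.30 to 16.3 with a median of 9.06, against 12.1, and in WT13 from 4.35 to 14.7 with a median of 8.56, against 11.7. Only 32 of the 158 calls in WT10, 2 of 63 in WT28, 9 of 35 in WT30 and 2 of 17 in WT13 exceeded their library's median −log10 q. The fold enrichment at the summit differed less from the rest of the library, with medians of 5.70 against 5.90 over all peaks in WT10, 5.85 against 6.22 in WT28, 6.34 against 6.07 in WT30 and 6.25 against 5.96 in WT13. These fold and q values are the authors' own, from the same calls that chose the regions, and are given without a test. A median −log10 q below that of the library was not particular to these regions. It was 7.84 to 8.92 at off-list WT-only regions within 10 kb of a knockout peak. Knockout regions over 10 kb from every WT peak had 7.63 to 8.45. WT-only regions on the combined list had 10.2 in WT10, 6.52 in WT13, 8.28 in WT28 and 8.11 in WT30.

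**Figure D2:**
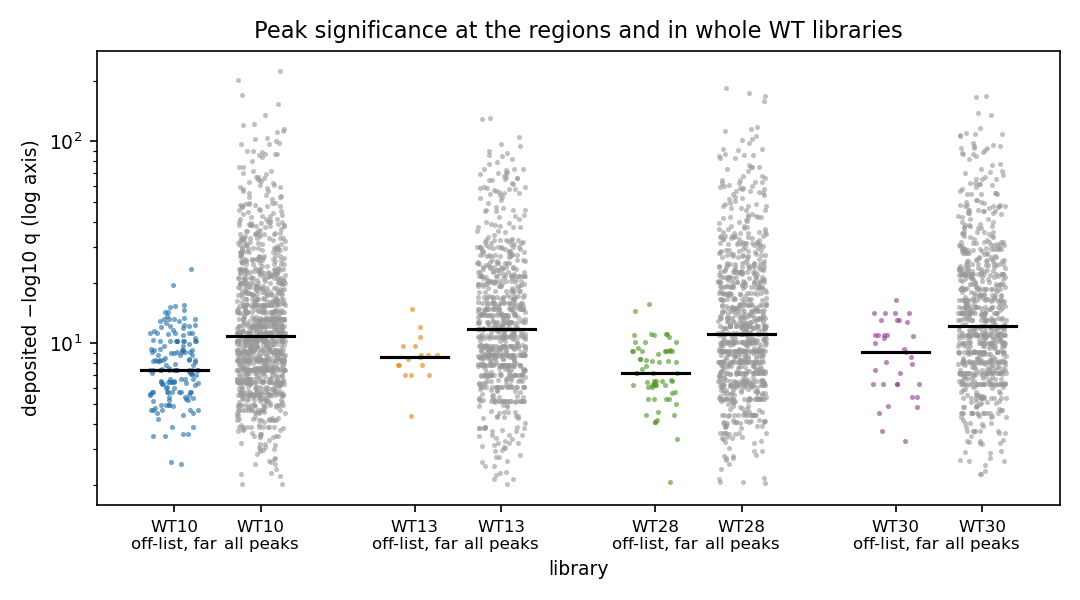
Deposited −log10 q (vertical, log axis) of each called peak at the off-list far regions (coloured) and of all peaks on chromosomes 1 to 22, X and Y (grey) in each WT library; black bars are medians. The regions reach 23.4 in WT10, where the whole library reaches 222.

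All 4 WT clones called 2 regions. At ART1, an ADP-ribosyltransferase gene (chromosome 11, 3654136 to 3654571), the fold enrichment was 3.20 in WT10, 3.71 in WT13, 3.93 in WT28 and 2.87 in WT30. Near the end of chromosome 1, 15649 bp from PGBD2, a gene derived from a transposable element (248945841 to 248946149), it was 6.38 in WT10, 6.25 in WT13, 5.85 in WT28 and 8.01 in WT30. The ART1 values lay below those of the other regions called in 3 or 4 clones, and WT30 was the lowest clone at ART1 and the highest at PGBD2.

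A further 12 regions were called in 3 WT clones. The highest mean enrichment was at a region 260268 bp from EMB, which encodes embigin, a membrane partner of lactate transporters (chromosome 5, 50135622 to 50135923), with 11.1-fold in WT10, 6.81 in WT13 and 8.34 in WT30. A region 28109 bp from CIROZ (chromosome 1, 10917850 to 10918365) had 8.42-fold in WT10, 8.97 in WT28 and 7.52 in WT30. The region 26746 bp from CHAMP1, a gene for a zinc-finger protein of chromosome alignment (chromosome 13, 114354069 to 114354392), had 6.81-fold in WT13, 8.77 in WT28 and 8.01 in WT30, and it was the 1 region of this group that WT10 did not call.

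Within genes, SYTL2, which encodes a vesicle trafficking protein (chromosome 11, 85752960 to 85753247), had 6.96-fold in WT10, 5.40 in WT28 and 6.20 in WT30. NFRKB, a subunit of the INO80 chromatin remodeller (chromosome 11, 129888484 to 129888870), had 6.22, 5.40 and 6.54 in the same 3 clones. In both genes WT28 was the lowest of the 3. The region 31354 bp from IL21, a T-cell cytokine gene (chromosome 4, 122578410 to 122578753), had 6.19-fold in WT10, 5.96 in WT28 and 4.66 in WT30. A second region with EMB as its nearest gene, 264847 bp away (50130991 to 50131344), had 6.38-fold in WT10, 6.25 in WT13 and 5.00 in WT30. Those nearest to ZNF37A (423057 bp away), AGTPBP1 (256134 bp), LOC102723553 (485935 bp) and TUBA3C (2803468 bp) and the one in LOC101929601 had mean enrichments of 5.45 to 7.56 over their 3 clones. None of the 14 regions of 3 or 4 clones overlapped an H3K27ac peak, which allows a share of up to 21.4%. Of the sets compared, off-list WT-only regions within 10 kb of a knockout peak also had 0 of 27 at 3 or 4 libraries. Knockout regions over 10 kb from every WT peak had 0 of 23, and WT-only regions on the combined list had 10 of 25.

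**Figure D3:**
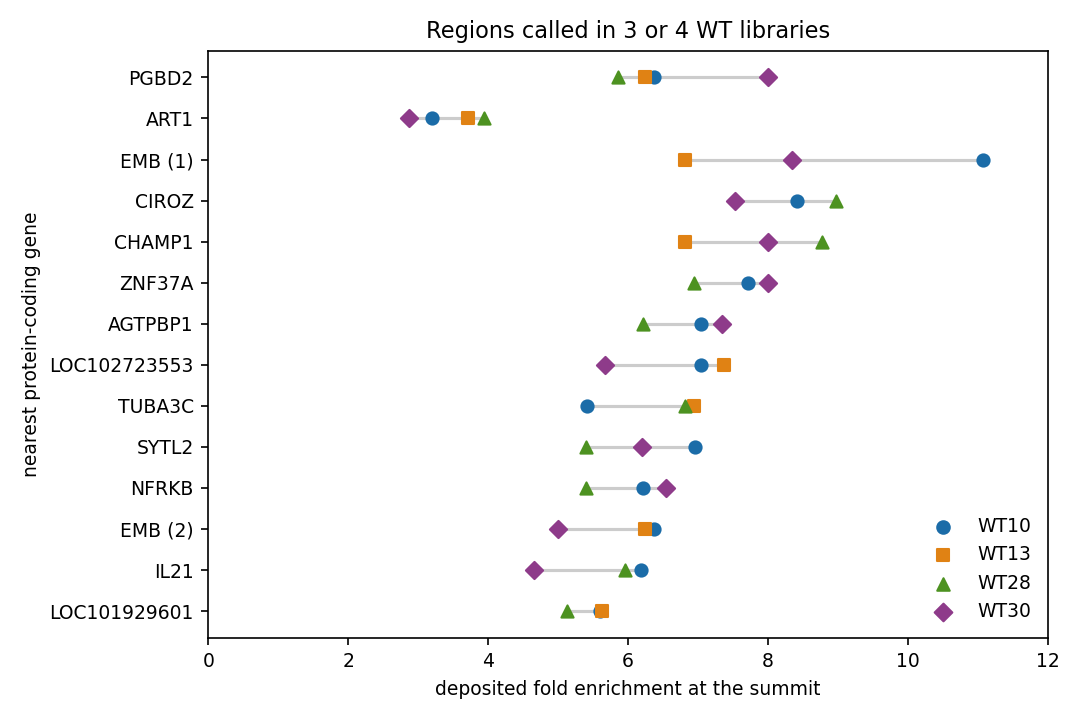
Deposited fold enrichment (horizontal axis) in each WT library that called the 14 regions of 3 or 4 clones, named by nearest protein-coding gene and ordered by number of clones and then mean. The 2 regions whose nearest gene is EMB are numbered. ART1 lies lowest, at 2.87 to 3.93, and the first EMB region reaches 11.1 in WT10.

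Among regions called in 2 clones, the highest mean enrichment was in LCP2, which encodes SLP-76, an adaptor that relays T-cell receptor signals (chromosome 5, 170278531 to 170279026). It had 8.05-fold in WT10 and 6.95 in WT28 and overlapped an H3K27ac peak of 12.8-fold. Next came TTC34 (chromosome 1, 2758550 to 2758830), with 7.72-fold in WT10 and 6.81 in WT13. The region nearest to LOC124901649, 2832464 bp away (chromosome 7, 60917727 to 60918066), had 7.38-fold in WT10 and 6.95 in WT28. The 3 that followed lay in the cadherin-family gene CDHR2 (chromosome 5, 176591694 to 176591916), 279773 bp from LOC124903767 (chromosome 16, 34669595 to 34669915) and 1175764 bp from USP9Y (chromosome Y, 11525129 to 11525466). All 3 carried the same deposited pair of values, 7.05-fold in WT10 and 6.95 in WT28.

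Over the 47 regions of 2 or more clones, the distance between the outermost summits had a median of 47 bp and a range of 0 to 333 bp. It was 50 bp or less in 25 regions and over 100 bp in 17.

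H3K27ac overlapped 30 of the 210 off-list far regions (14.3%, 95% Wilson interval 10.2 to 19.7), and 27 of the 30 were called in WT10. The H3K27ac peaks at them had a median enrichment of 10.3-fold (range 4.72 to 25.7), against 6.19-fold over all 9857 H3K27ac peaks. The highest lay in GALNT6, which encodes an enzyme that starts mucin-type O-glycosylation (chromosome 12, 51368950 to 51369336), at 25.7-fold; there the NKX2-1 antibody gave 7.27-fold in WT10 and 6.46 in WT28. Others with high H3K27ac, called in WT10 alone, lay at the start of LINC01215 and 34579 bp from CD47, a cell-surface signal that restrains phagocytosis (chromosome 3, 108125611 to 108125873; H3K27ac 19.6-fold) and 9106 bp from GARIN4 (chromosome 1, 212635882 to 212636081; 15.2-fold).

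Further regions among the 10 with the highest H3K27ac enrichment lay in LST1, a leukocyte-expressed gene (chromosome 6, 31586524 to 31586832; 14.7-fold), RAI1 (chromosome 17, 17757500 to 17757833; 14.7-fold), CDK6 (14.7-fold), PITPNM2 (chromosome 12, 123033980 to 123034193; 12.8-fold) and LCP2, and 34804 bp from AZIN1 (chromosome 8, 102899005 to 102899204; 14.0-fold). Of the 10 highest, 8 were called in WT10 alone and 2, in GALNT6 and LCP2, in WT10 and WT28. The median mean enrichment of the NKX2-1 antibody was 5.06-fold at the 30 regions with H3K27ac and 5.79-fold at the other 180. Of those 180, 34 lay within 10 kb of an H3K27ac peak without overlapping it.

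Seen per library, H3K27ac overlapped 17.1% of the off-list far regions called in WT10 (27 of 158), 9.52% in WT28 (6 of 63), 5.71% in WT30 (2 of 35) and 0 of 17 in WT13, where 0 calls leave room for up to 17.6%. Off-list far regions averaged 8.08% ± 7.17 (SD, n = 4 libraries), against 30.1% ± 10.1 for the WT-only regions on the combined list (SD, n = 4). They were lower in 4 of 4 libraries, with p = 0.125 in a two-sided exact sign-flip test over the 4 libraries, the smallest it can give, and 0.188 after Benjamini-Hochberg adjustment over 6 tests. The gap was smaller when regions were counted once each, at 30 of 210 (14.3%) against 28 of 126 on the combined list (22.2%, 15.8 to 30.2). It was also smaller, at −11.5 percentage points, when an overlap had to cover at least 50% of the shorter interval. WT13 had only 7 regions on the combined list, of which 3 overlapped H3K27ac. WT10 called 121 of the 126 regions on that list. Only 3 of the 57 called in WT28, 2 of the 36 in WT30 and 0 of the 7 in WT13 were called in no other WT library. The 4 library values for the combined list therefore rest largely on the same regions and are not independent.

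A further 160 off-list WT-only regions lay within 10 kb of a knockout peak. Off-list far regions averaged 8.08% against 1.75% ± 2.02 in these (SD, n = 4), a difference of 6.34 percentage points, and were higher in 3 of 4 libraries (exact sign-flip p = 0.25, adjusted 0.3). Without WT10 the difference was 3.89 percentage points. The mirror set, 315 merged knockout regions over 10 kb from every WT peak, gave 4.63% ± 4.17 per knockout library (SD, n = 4), with 9.79% in S36, 5.77% in C12, 2.94% in C15 and 0 of 39 in S04. Off-list far regions were 3.46 percentage points above it (two-sided exact permutation test over 70 assignments of the libraries, p = 0.543, adjusted 0.543). That difference moved with single libraries: it was −1.25 without WT10, 1.98 without WT28, 6.35 without WT13 and 7.40 without S36, and it was 1.66 with peaks of −log10 q of 5 or more. None of the 3 differences in H3K27ac overlap passed an adjusted p of 0.05. This was fixed in advance. Over 4 libraries the sign-flip tests cannot give less than 0.125. The permutation test cannot give less than 0.0286, which stays above 0.05 once adjusted over 6 tests beside them.

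**Figure D4:**
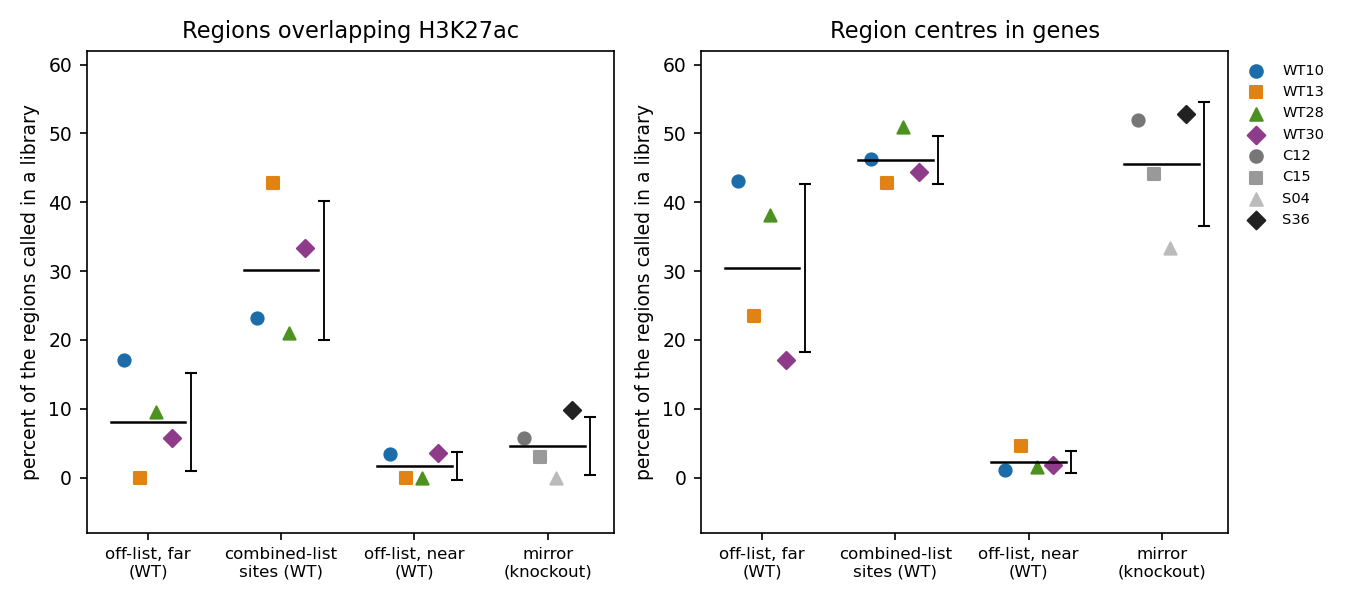
Share of the regions called in each library (vertical axis, percent) that overlap H3K27ac (left) or have their centre in a protein-coding gene (right), for off-list far regions, combined-list sites and off-list regions near knockout peaks in WT libraries, and for the mirror set in knockout libraries. Points are libraries, bars are means and error bars are SDs (n = 4); off-list far regions average 8.08% and 30.5%.

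The centres of off-list far regions lay in protein-coding genes for 81 of the 210 (38.6%, 95% Wilson interval 32.2 to 45.3); per library the share was 43.0% in WT10, 38.1% in WT28, 23.5% in WT13 and 17.1% in WT30. The mean was 30.5% ± 12.1 against 46.1% ± 3.47 for combined-list sites (SD, n = 4 each; exact sign-flip p = 0.125, the smallest it can give, adjusted 0.188; lower in 4 of 4 libraries). Regions near knockout peaks had 2.26% ± 1.55 (SD, n = 4), and off-list far regions were higher by 28.2 percentage points, in 4 of 4 libraries (exact sign-flip p = 0.125, adjusted 0.188). The mirror set had 45.5% ± 9.03 in knockout libraries (n = 4), and the difference of off-list far regions from it was −15.1 percentage points, with p = 0.114 in the exact permutation test and 0.188 after adjustment. Without WT30 that difference was −8.39 percentage points. None of the 3 differences passed an adjusted p of 0.05, which neither kind of test could reach after adjustment.

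By distance, 83 of the 210 regions overlapped a protein-coding gene, 51 lay outside genes but within 50 kb of one, 48 lay 50 to 500 kb away and 28 (13.3%) over 500 kb away. H3K27ac overlapped 20.5% (13.2 to 30.4), 13.7% (6.81 to 25.7) and 12.5% (5.86 to 24.7) of the first 3 classes and 0 of the 28 farthest, which allows a share of up to 10.7%. Of those 28, 4 were called in 2 or more WT libraries. The sequence and repeat content of these 28 were not examined, so how well reads align there is unknown. Over 500 kb from a gene also lay 4.76% of the combined-list sites, 46.9% of the regions near knockout peaks and 6.98% of the mirror set. The gene table has no exons, so a region in a gene was not placed in an exon, an intron or a UTR. Chromosome 1 held 27 of the regions, chromosome 17 held 22 and chromosome 5 held 17, while chromosome 18 held 1.

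A run is taken here as regions each within 10 kb of the next; 6 runs were found, 4 of them of 2 regions. The longest held 8 regions over 15524 bp of chromosome 5 (50128754 to 50144277), with EMB the nearest protein-coding gene, 251914 bp from the last region. WT10 called 4 of the 8, WT13 5 and WT30 5, WT28 none, and neither a knockout library nor the H3K27ac library had a peak in the run or within 50 kb of it. The starts of the first 4 regions lay 2237, 2212 and 2419 bp apart. The region with the 11.1-fold call in WT10, given above, is the fourth. Regions of a run may share sequence, which was not examined, and are not independent of each other.

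The second run of more than 2 regions lay in a cluster of small nuclear RNA (snRNA) genes on chromosome 17. snRNAs are the RNA components of the spliceosome, and the annotated cluster holds RNU2-1, a U2 snRNA gene, and 12 further genes annotated as snRNA, over 66442 bp (43233790 to 43300231). Its 4 regions (43284018 to 43300125) each overlapped 1 of the last 4 snRNA genes, LOC124904142, LOC124904145, LOC124904143 and LOC124904144, and each overlapped an H3K27ac peak. All 4 were called in WT10 alone, with 5.49, 3.90, 4.64 and 3.72-fold enrichment.

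Across the whole cluster, the knockout libraries had a call at 0 of the 13 snRNA genes each. Among WT libraries, WT10 had a call at 8, WT30 at 3, WT28 at 1 and WT13 at 0. The call in WT28 was at LOC124904146, which starts at 43273101, and its peak ended just inside the gene, at 43273113. Peaks at the same place in S04 and WT13 ended short of the gene, at 43272975 and 43273087, so the counts of WT28, WT13 and S04 differ there only by where a peak ends. The H3K27ac library had a peak at all 13. Knockout peaks did lie between the snRNA genes, 1 in S04 (43272730 to 43272975, 6.01-fold) and 1 in C12 (43238128 to 43238336, 5.30-fold). The other WT peaks of the cluster overlapped one of these or lay within 10 kb of it, so they are not among the off-list far regions. The genes are of nearly equal length (188 to 192 bp), and reads from near-identical copies could be split between them by the authors' alignment, so the position of a call within the cluster is uncertain. These counts were looked at after the run had been seen and carry no test.

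Of the 186 genes on the 9 lists, which cover T-cell, leukaemia and NKX2-1 target biology, 9 lay within 10 kb of an off-list far region (4.84%), as did 0.639% of all 20037 protein-coding gene entries. The listed genes were chosen with earlier results of these data known, so this share is a description. The 9 genes lay near 8 regions, 7 of them called in WT10 alone; 8 of the genes were overlapped, and STAT5A lay 7886 bp away.

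The T-cell identity and receptor signalling list had 2 of 29 genes, LCP2 and LAT. Both encode adaptors that assemble signalling complexes below the T-cell receptor. The LAT region (chromosome 16, 28984830 to 28985149) overlapped the promoter window printed above and had 5.03-fold enrichment in WT10. It overlapped no H3K27ac peak, but the nearest lay 60 bp away.

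The cell cycle list had 2 of 20 genes, both of the G1 kinase that drives entry into the cycle. CDK6, its catalytic subunit (chromosome 7, 92755155 to 92755356), had 3.97-fold enrichment in WT10 and an H3K27ac peak of 14.7-fold. CCND3, its cyclin D3 partner (chromosome 6, 42017025 to 42017366), had 4.46-fold in WT10 and a combined-list peak 28373 bp away. No H3K27ac peak overlapped its region, but the nearest lay 88 bp away. CCND3 was also the 1 hit among 14 genes of the NOTCH and MYC axis.

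The JAK-STAT and cytokine list had 3 of 18 genes. A region in STAT3 (chromosome 17, 42319830 to 42320070), 7886 bp from STAT5A, had 4.65-fold enrichment in WT10 and an H3K27ac peak of 11.5-fold; both genes encode transcription factors downstream of cytokine receptors. BLK, a Src-family kinase gene (chromosome 8, 11558607 to 11558806), had 5.27-fold in WT10 and an H3K27ac peak of 7.41-fold.

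Among 22 lung and thyroid targets of NKX2-1, 2 had a region. TG, which encodes the thyroid hormone precursor thyroglobulin (chromosome 8, 132985664 to 132985874), had 4.63-fold in WT10. No H3K27ac peak overlapped its region, and the nearest lay 70496 bp away. FOXP1, a forkhead factor gene (chromosome 3, 71444144 to 71444494), had 4.37-fold in WT10 and an H3K27ac peak of 4.72-fold. The lists of T-ALL oncogenic transcription factors (0 of 23 genes), RUNX and haematopoietic partners (0 of 16), DNA damage response and repair (0 of 30) and apoptosis and survival (0 of 17) had none.

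The 14 regions on promoter windows made up 6.67% of the off-list far regions, against 3.97% of the combined-list sites and 7.62% of the mirror set. No region near a knockout peak touched such a window. Beside the 6 genes printed above, the windows were those of RPS16, a ribosomal protein gene (4.76-fold in WT10), MALAT1, an abundant nuclear RNA (5.36-fold in WT10), HNRNPUL1, an RNA-binding protein gene (4.91-fold in WT10), the shared start of RAB2B and TOX4 (5.42-fold in WT10), ZBTB37 (4.77-fold in WT10), S100A5 (3.51-fold in WT10), UTP3, which acts in ribosomal RNA processing (5.67-fold in WT28), and LOC105373622 (5.85-fold in WT28). PSMA6, a proteasome subunit gene, had 5.16-fold in WT10 and an H3K27ac peak of 8.87-fold. The MIATNB region had 6.04-fold in WT10 and 5.48 in WT28 without an overlapping H3K27ac peak. The LOC124901407 region, which lies in AHI1, had 3.70 and 3.37 with an H3K27ac peak of 10.6-fold.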

How the data were processed

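Peak calls were analysed, not reads. Per the submitters' processing notes the tools were FastQC, Bowtie2, SAMtools, MACS2 and deepTools on hg38; versions, parameters and the peak-calling control are not given in the sources used here. Each deposited peak has a position, the authors' fold enrichment (a ratio to the caller's background, taken at its summit), and −log10 of p (not used) and of q. The lowest −log10 q per deposited list was 2.01 to 2.18. Which libraries formed the combined list is not stated. The members and lists were chosen with earlier results of these data known.

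Overlap meant 1 bp or more; distances count the bases between intervals; coordinates are 1-based. Genes came from a RefSeq table for GRCh38.p14; all 186 listed symbols matched. Where a library had several peaks in a region, that with the highest −log10 q was used. Shares per library were compared by two-sided exact permutation tests, adjusted by the Benjamini-Hochberg method over 6 tests. Shares carry 95% Wilson intervals; a count of 0 allows 3 of the total. Regions named in the text were those called in 3 or 4 WT libraries, the 10 of highest mean enrichment among those in 2 or more, the 10 of highest H3K27ac enrichment, those within 10 kb of a listed gene, those on promoter windows, and 3 on each side of the 10 kb limit. A region that this rule names is not reported here. Alternatives changed the distance limit, the −log10 q minimum, the overlap, the sequences used and the libraries. Scripts were tested on simulated peak lists. Python 3.11.15, numpy 2.4.6, scipy 1.17.1 and matplotlib 3.10.9 were used.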

Additional observations from a re-analysis of the deposited data

Results flagged for a closer look

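In the mirror set of knockout regions over 10 kb from every WT peak, S36 stood apart from the other knockout libraries, with a call at 286 of the 315 regions against 34 to 52 in C12, C15 and S04. Its gap to the next library was 0.929 of the group's range, above Dixon's 95% critical value for 4 samples. The mirror set is thus mainly a set of S36 regions, which bears on the comparisons made with it above. In all, 8 groups of 4 libraries were examined and 1 was flagged; chance flags about 1 in 20 such groups.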

How the results depend on the processing

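Each result was recomputed under 15 alternatives: 7 other settings and the removal of each of the 8 libraries. The off-list far regions were always drawn from the deposited WT-only list, which was not rebuilt. A WT region overlapped by a peak of a removed knockout library therefore could not enter. Nor could a WT region overlapped only by knockout peaks below a raised −log10 q minimum. Under the settings, 179 to 225 regions met the rule and 42 to 52 of them were called in 2 or more WT libraries. H3K27ac overlapped 10% of the regions when an overlap had to cover at least 50% of the shorter interval; other settings gave up to 14.4%. Leaving out 1 library in turn gave 95 to 215 regions, 17 to 49 called in 2 or more WT libraries, an H3K27ac share of 8.42% to 15.5% and a share with the centre in a gene of 29.5% to 41.0%; the low ends are those without WT10, and 24 regions were called in 2 or more WT libraries without WT28. The difference in H3K27ac overlap from the mirror set ran from −1.25 to 7.40 percentage points; it changed sign without WT10 (exact permutation p = 0.743) and in no other alternative. The cause was not tested. The other differences kept their sign in all 15 alternatives. Leaving out 1 library, the difference in H3K27ac overlap ran from −27.3 to −15.1 percentage points against combined-list sites and 3.89 to 8.45 against regions near knockout peaks. The difference in centres in genes ran from −20.0 to −8.39 against the mirror set, −19.8 to −11.8 against combined-list sites and 23.6 to 32.5 against regions near knockout peaks. Across all alternatives no test passed adjustment (smallest adjusted p = 0.188, exact tests). The sign-flip test over 4 WT libraries cannot give less than 0.125 and so cannot pass 0.05; the permutation test against the mirror set can reach 0.0286. No paired analysis was possible because clone names give the genotypes no shared replicate numbers. Depth is unknown for every library.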

Other observations

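Long noncoding RNA genes were overlapped by 29 of the 210 off-list far regions, 24 of which overlapped no protein-coding gene. They included GAS5 (chromosome 1, 173868273 to 173868472, called in WT10), MIAT (chromosome 22, 26672600 to 26673037, called in WT10 and WT28), MAILR (chromosome 8, 102899005 to 102899204, called in WT10, with H3K27ac) and CARINH (chromosome 5, 132466475 to 132466776, called in WT28). These names were chosen after their values were seen, and strand was not known, so a call cannot be assigned to a noncoding gene rather than to one that overlaps it. Such overlap was not particular to the off-list far regions. It was found for 24 of the 126 combined-list sites, 54 of the 315 mirror regions and 3 of the 160 regions near knockout peaks.

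Many calls at these regions carried identical deposited values. In WT10, 78 of the 158 calls shared their pair of fold enrichment and −log10 q with another of the regions, in WT28 39 of 63, in WT30 15 of 35 and in WT13 11 of 17. The pair of 6.95-fold and 9.12 occurred at 7 of the regions and 35 times in all in WT28, and the pair of 7.05-fold and 10.2 at 7 of the regions and 29 times in all in WT10. The 158 calls in WT10 held 101 distinct pairs and the 63 in WT28 held 37.

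Few of the regions lay beside the combined list from which they are absent: 5 were within 10 kb of a combined-list peak and 15 within 100 kb. S36 was the knockout library with the nearest peak for 126 of the 210 regions.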
